A study of Homo sapiens with 6 samples.

Results

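The genes described here are 48 genes of the NRF2 response and of the glutathione and thioredoxin systems, taken by their symbols from a count table of 19202 genes. Of the 48, 47 were found by symbol, 46 passed the filter on low counts and were tested, GSTM2 had too few counts, and GPX1 was not analysed here. The samples were MHCC97H cells, a human hepatocellular carcinoma line of high metastatic potential, as 3 control libraries labelled sorafenib sensitive and 3 libraries labelled sorafenib resistant. Sorafenib blocks several receptor and RAF kinases and is given in advanced liver cancer. The dose and time of exposure, whether the drug was present at harvest, and whether the resistant cells are 1 clone are not given in the labels. Nothing in the labels says that replicates came from separate cultures. The p-values therefore measure only how far these libraries spread, and that spread may be technical.

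NRF2, the product of NFE2L2, is a transcription factor that the adaptor KEAP1 holds in the cytoplasm and delivers for degradation until oxidants or electrophiles modify KEAP1. Freed NRF2 pairs with small MAF proteins at antioxidant response elements and drives genes for quinone and aldehyde reduction, glutathione synthesis and conjugation, the thioredoxin system and NADPH supply. Glutathione and thioredoxin are the main electron carriers that reduce peroxides and disulfides in liver cells, and NRF2 activity is often raised in hepatocellular carcinoma.

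Total counts ran from 1913469 in control replicate 1 to 5345272 in control replicate 2, and the resistant libraries lay between them. Levels are CPM, counts per 1000000 after division by library total and TMM factor (the trimmed mean of M-values, which offsets differences in RNA composition), given for replicates 1, 2 and 3 in that order. A log2 fold change (log2FC) above 0 means a higher level in resistant cells. It comes from edgeR's quasi-likelihood test with its standard error (SE), and a gene was called at a Benjamini-Hochberg adjusted p under 0.05 over 10804 genes. Of the epithelial markers, KRT8 had 1010 to 1401 CPM and KRT18 693 to 876 CPM, while EPCAM stayed at or below 5.14 CPM. CDH1, the epithelial cadherin, was called lower (log2FC -1.13, adjusted p = 0.0219), with 41.1 CPM in control replicate 1 and 7.04 to 11.1 CPM in the other 5 libraries. The 5 epithelial markers summed to 1876 to 2408 CPM in control and 1781 to 2141 CPM in resistant libraries. Of 15 hepatocyte and hepatocellular carcinoma markers, 5 (AFP, APOA1, TTR, FGG and GPC3) stayed below 5 CPM in every library. The 15 summed to 189.8 to 208 CPM in control and 129 to 166 CPM in resistant cells, with 3 of the 12 tested called lower. Summed endothelial markers (5 genes) reached 133 CPM in resistant replicate 3, against 40.6 and 50.5 CPM in the other resistant libraries and 50.2 to 68.2 CPM in control. None of these 5 was at 0 in all libraries, and VWF had 26.2 CPM in resistant replicate 3 and at most 1.76 CPM elsewhere. The 7 fibroblast and stellate markers summed to 15.9 to 36.7 CPM in control and 11.8 to 42.6 CPM in resistant libraries. The 6 leukocyte markers summed to at most 9.09 CPM. The part of these marker levels in the results was not tested.

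The redox genes did not move as 1 block. Of the 46 tested, 8 rose and 13 fell in resistant cells, 45.7% called, against 24.1% of all tested genes (11.7% higher and 12.3% lower). The redox genes were chosen with earlier results of these data known, so this excess is no independent finding. Abundant genes were called more often, so a closer background is the 2193 genes with at least 100 CPM on average, of which 42.9% were called, 24.6% higher and 18.3% lower. Of the redox genes in that range, 17 of 27 were called, 7 higher and 10 lower. In such bulk libraries, fewer cells with a transcript and less of it per cell cannot be told apart. Of the 46, 4 were called with a change of at least 2-fold, against 4.93% of all tested genes, and all 4 (GPX2, CAT, GSTM4 and SRXN1) fell. The median log2FC of the 46 was -0.12, and of all tested genes -0.01. Groups did not overlap for 8 of the 46 in the higher and 15 in the lower direction, called or not. Over all tested genes these shares were 19.2% and 18.9%, so lack of overlap adds little to a call. Summed over the 47 genes, control libraries had 28804 ± 1269 CPM against 28397 ± 1231 CPM for resistant ones (mean ± SD of 3), and the groups overlapped. The genes with the most CPM moved in opposite directions, TXNRD1 from 7731 to 9061 CPM and AKR1B10 from 5040 to 3638 CPM by the means. The sum therefore says little about the other genes. Without resistant replicate 3, the library with the raised endothelial markers, 5 redox genes were called higher and 11 lower. With control replicate 1, the shallowest library, left out as well, 3 were higher (AKR1C3, PRDX3 and PRDX6) and 11 lower.

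**Figure D1:**
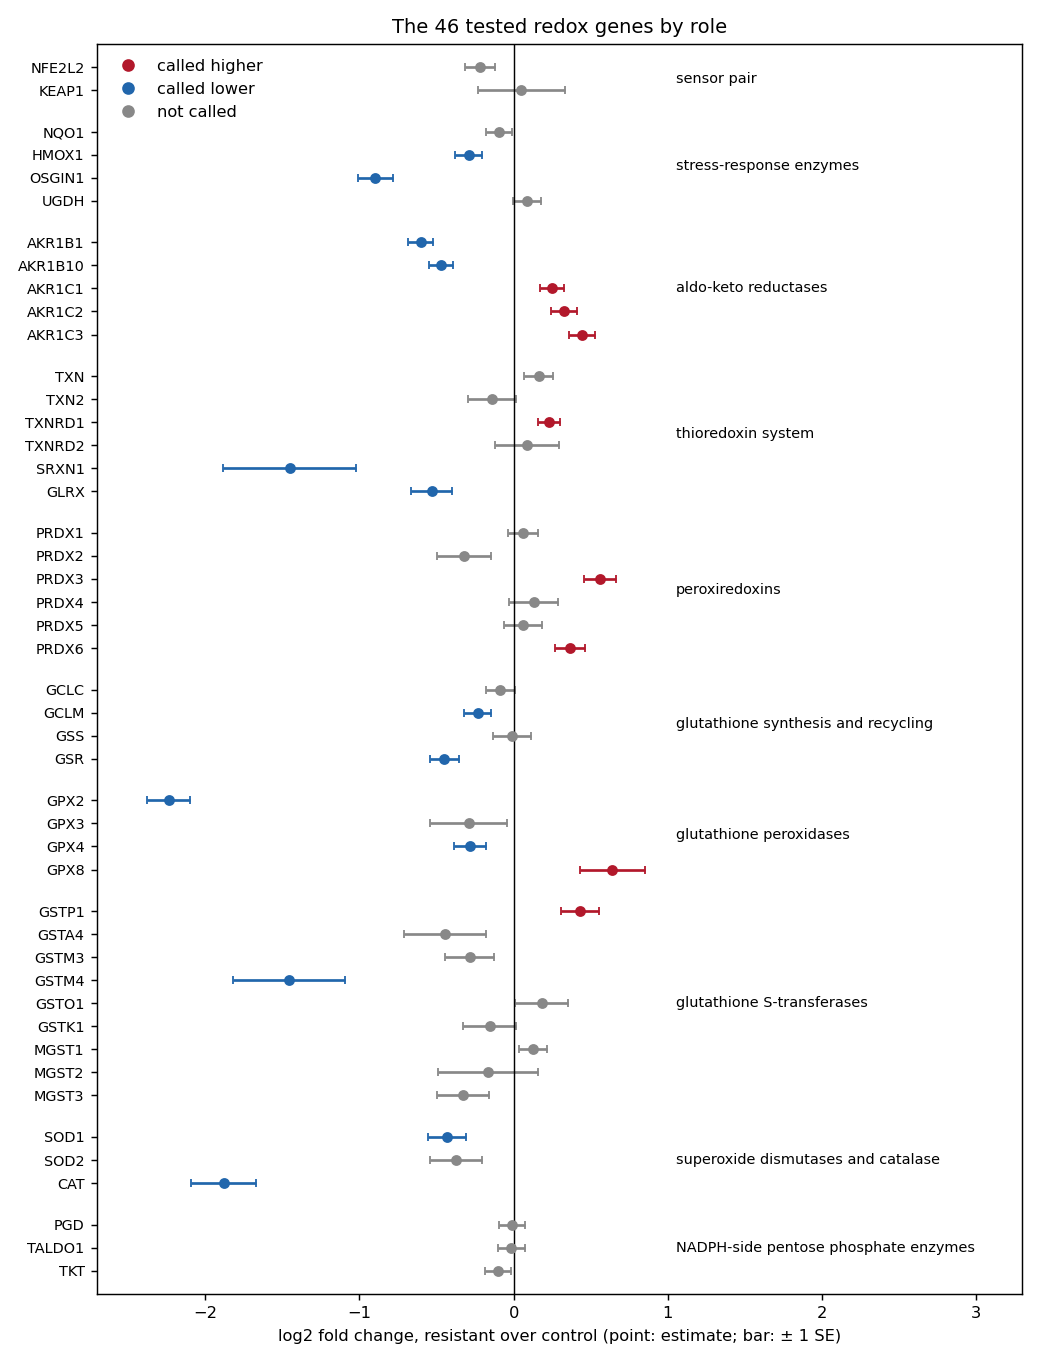
Log2 fold change (horizontal axis, resistant over control) with 1 SE for each of the 46 tested redox genes, in groups by role; red marks the 8 genes called higher, blue the 13 called lower and grey the 25 not called. GPX2 and CAT lie farthest to the left, and no gene called higher lies beyond the 0.64 of GPX8.

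**Figure D2:**
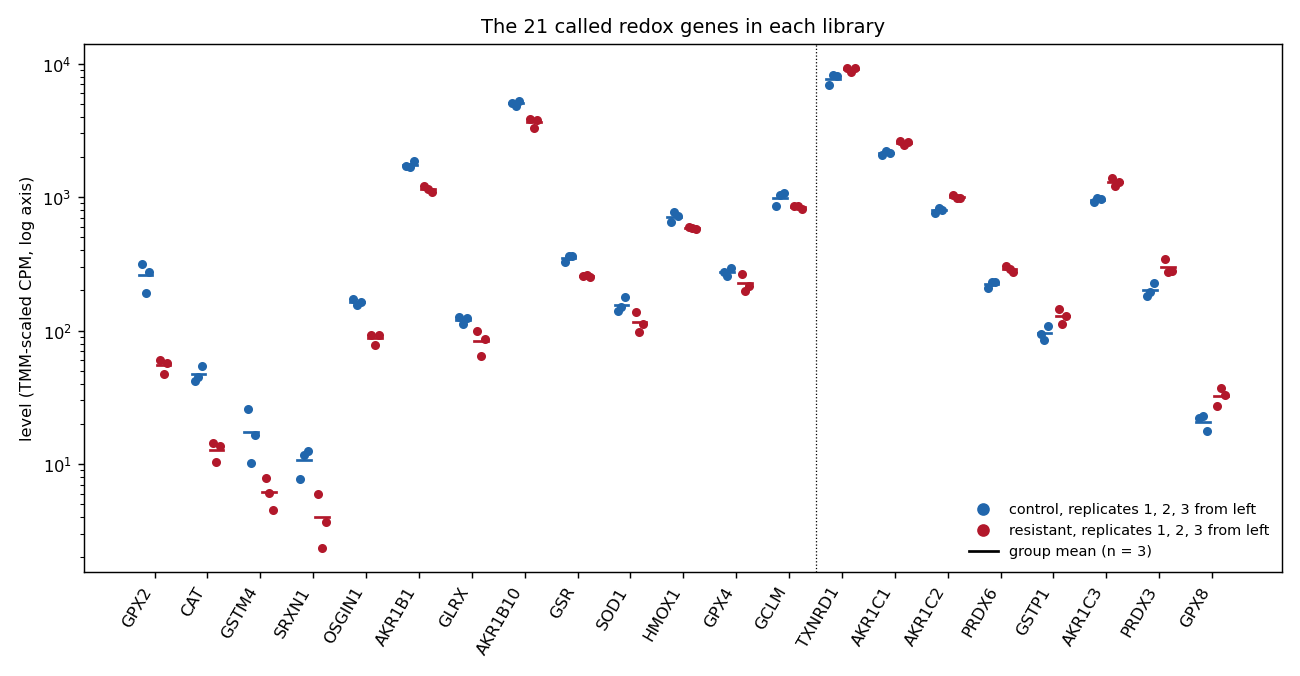
Level in every library (TMM-scaled CPM, log axis) of the 21 called redox genes, ordered by log2 fold change, with control in blue, resistant in red and the group mean of 3 libraries as a line. The groups of each gene are apart except for GPX4, whose resistant replicate 1 lies among the control libraries. Over all tested genes, called or not, the groups are apart for 38.1%.

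The sensor pair itself was not called. NFE2L2 had 335, 346 and 382 CPM in control and 338, 257 and 321 CPM in resistant libraries (log2FC -0.22, SE 0.10, adjusted p = 0.111). Resistant replicate 1 lay within the control range and the other resistant libraries below it. Of 16 alternative settings, the NFE2L2 difference was called in 1, without resistant replicate 1 (log2FC -0.30, adjusted p = 0.0326). It shrank without resistant replicate 2 (log2FC -0.10, adjusted p = 0.544) and without control replicate 3 (log2FC -0.15, adjusted p = 0.397). KEAP1, the adaptor that marks NRF2 for degradation, had 15.4, 17.1 and 13.5 CPM in control and 13.3, 12.5 and 21.9 CPM in resistant libraries (log2FC 0.05, SE 0.28, adjusted p = 0.922). The highest and the lowest KEAP1 values were both in resistant libraries. The log2FC of KEAP1 was -0.26 without resistant replicate 3 and -0.03 without control replicate 3, not called in either case.

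The antioxidant response element was searched as TGACNNNGC on both strands of the RefSeq promoters on GRCh38.p14, from 250 bases before to 50 bases after each annotated start. Of the 48 genes, 39 had a promoter in that table, and 9 of the 39 held a match. The genes not searched for want of a promoter were AKR1B10, GSR, GSS, HMOX1, MGST2, PRDX1, PRDX6, SOD1 and TXN2. NQO1, OSGIN1, SRXN1 and GCLC were searched without a match, but elements outside the searched bases would be missed. By promoter the share was 18.5% (10 of 54, since some genes have several starts), against 14.6% of the promoters of tested genes and 13.3% of all promoters. A match is a run of letters and not a bound site. The windows of 4 called genes are shown because they hold like elements upstream of the start while their transcripts differed in direction, GPX2 and GCLM lower and GSTP1 and TXNRD1 higher. Capitals mark the match, and each line runs 5′ to 3′ on the strand of the gene.
GPX2 (chr14:64942839-64942887, minus strand): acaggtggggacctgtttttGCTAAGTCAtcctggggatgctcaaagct
GCLM (chr1:93909436-93909484, minus strand): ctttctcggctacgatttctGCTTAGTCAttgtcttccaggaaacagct
GSTP1 (chr11:67583726-67583774, plus strand): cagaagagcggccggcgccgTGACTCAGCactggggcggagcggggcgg
TXNRD1, first start (chr12:104215660-104215708, plus strand): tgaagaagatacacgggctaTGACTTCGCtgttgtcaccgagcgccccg
TXNRD1, second start (chr12:104286910-104286958, plus strand): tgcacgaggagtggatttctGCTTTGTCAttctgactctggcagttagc
In GPX2 the match reads TGACTTAGC on the opposite strand and begins 122 bases before the start, and in GCLM it reads TGACTAAGC, also on the opposite strand, 34 bases before the start. The GSTP1 match, TGACTCAGC, begins 66 bases before the start on the strand of the gene. The TXNRD1 matches shown begin 99 and 102 bases before their starts, and a further one, TGACGGAGC, 8 bases before the first start, is not shown. KEAP1 holds 2 matches, TGACACGGC and, on the opposite strand, TGACTAAGC, the same 9 letters as in GCLM. The other genes with a match were GSTA4, GSTO1, MGST1 and PGD, and none of these 4 was called.

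Of the 4 genes grouped here as stress-response enzymes, OSGIN1 and HMOX1 fell, and NQO1 and UGDH were not called. That is 50.0% called, against 24.1% of all tested genes. These enzymes all had at least 100 CPM on average, and of genes in that range 42.9% were called. Other genes that NRF2 drives are given below by role, some called higher and some lower. OSGIN1, an oxidative stress-induced growth inhibitor, had 172, 156 and 163 CPM in control and 92.0, 78.1 and 93.3 CPM in resistant libraries. Every resistant library lay below every control library (log2FC -0.90, SE 0.11, adjusted p = 1.18e-07), a level 1.87-fold higher in control by the means. HMOX1, the haem oxygenase that breaks haem into biliverdin, iron and carbon monoxide, had 652, 775 and 719 CPM in control and 597, 588 and 573 CPM in resistant libraries (log2FC -0.29, SE 0.09, adjusted p = 0.012). Its groups did not overlap, but it was no longer called without control replicate 2 (adjusted p = 0.0924), control replicate 3 (0.0584) or resistant replicate 3 (0.0623). NQO1, the quinone reductase widely used as a readout of NRF2, had 988, 951 and 1050.0 CPM in control and 1004, 929 and 869 CPM in resistant libraries, and the groups overlapped (log2FC -0.09, SE 0.08, adjusted p = 0.469). UGDH, which makes the glucuronic acid donor used in conjugation, had a log2FC of 0.09 (SE 0.09).

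The aldo-keto reductases, which reduce aldehydes and ketones with NADPH, divided by subfamily, and all 5 were called, against 24.1% of all tested genes. All had at least 100 CPM on average, a range in which 42.9% of genes were called. Both AKR1B genes fell. AKR1B10 had 5099, 4785 and 5236 CPM in control and 3859.6, 3296 and 3759.5 CPM in resistant libraries (log2FC -0.47, SE 0.08, adjusted p = 1.06e-05), and AKR1B1, the polyol-pathway aldose reductase, had 1708, 1680.4 and 1849 and 1209, 1156 and 1087 CPM (log2FC -0.60, SE 0.08, adjusted p = 3.51e-07). No resistant library reached the lowest control library for either gene. All 3 AKR1C genes, which also act on steroids and prostaglandins, rose. AKR1C3 had 918, 979 and 970.5 CPM in control and 1395, 1219.9 and 1289.5 CPM in resistant libraries (log2FC 0.44, SE 0.08, adjusted p = 8.49e-05). AKR1C2 had 763, 830.3 and 798 CPM in control and 1029, 979.6 and 991 CPM in resistant libraries (log2FC 0.33, SE 0.08, adjusted p = 0.00319). For AKR1C1 the values were 2050.0, 2232 and 2146 CPM in control and 2614, 2474 and 2565 CPM in resistant libraries (log2FC 0.25, SE 0.08, adjusted p = 0.0137). The groups of each AKR1C gene were apart, with steps of 1.19, 1.25 and 1.36-fold by the means for AKR1C1, AKR1C2 and AKR1C3. AKR1C1 was no longer called without control replicate 3 (adjusted p = 0.0575) or resistant replicate 3 (0.0604), and AKR1C2 with control replicate 1 and resistant replicate 3 both left out (0.0603). AKR1C1, AKR1C2 and AKR1C3 are similar in sequence and lie side by side on chromosome 10, at chr10:4963253-4983283, chr10:4987400-5018031 and chr10:5035354-5107686 (GENCODE 29, GRCh38). Reads could be split among them, so their 3 values are not independent and each is uncertain. AKR1B1 and AKR1B10 are neighbours on chromosome 7, at chr7:134442350-134459284 and chr7:134527592-134541408.

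Per kilobase of the principal annotated transcript, AKR1B10 was the most abundant of the 47 genes in control libraries (3170 CPM per kilobase), followed by TXNRD1 (1967), AKR1B1 (1239), TXN (629) and MGST1 (559). In resistant libraries TXNRD1 came first (2305.5 CPM per kilobase), then AKR1B10 (2288), AKR1B1 (817) and AKR1C3 (720.3). These levels rest on 1 annotated transcript per gene, which need not be the one expressed. AKR1C1 had more CPM than AKR1B1 in both groups but was divided by 6705 bases, against 1409 for AKR1B1. Its place in the order therefore rests on that transcript.

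In the thioredoxin system, the cytosolic reductase rose slightly and 2 repair proteins fell. That is 3 of 6 genes or 50.0% called, against 24.1% of all tested genes. TXNRD1, the selenoenzyme that passes electrons from NADPH to thioredoxin, had 6905, 8268 and 8018 CPM in control and 9192, 8720.3 and 9269.7 CPM in resistant libraries (log2FC 0.23, SE 0.07, adjusted p = 0.0195). The groups were apart by 8268 against 8720 CPM at their closest libraries. It was no longer called without control replicate 1 (log2FC 0.16, adjusted p = 0.119) or resistant replicate 3 (adjusted p = 0.0933). With both left out the log2FC was 0.14 (adjusted p = 0.375). SRXN1, sulfiredoxin, which repairs overoxidised peroxiredoxins, fell from 7.71, 11.7 and 12.6 CPM to 5.96, 2.35 and 3.68 CPM (log2FC -1.45, SE 0.43, adjusted p = 0.0111). The SRXN1 groups did not overlap, but the counts were few, 15, 62 and 43 in control and 22, 10 and 18 in resistant libraries. It was no longer called without control replicate 2 (adjusted p = 0.0569), control replicate 3 (0.0637) or resistant replicate 2 (0.0627). GLRX, glutaredoxin, which removes glutathione from proteins, had 126, 112 and 124 CPM in control and 99.1, 64.2 and 86.7 CPM in resistant libraries (log2FC -0.53, SE 0.13, adjusted p = 0.00247), with no overlap and the lowest value in resistant replicate 2. Thioredoxin itself, TXN, had 487, 557 and 594 CPM in control and 688, 555 and 598 CPM in resistant libraries, and the groups overlapped (log2FC 0.16, SE 0.09, adjusted p = 0.216). The mitochondrial pair TXN2 and TXNRD2 were not called (log2FC -0.14 and 0.09).

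Of the peroxiredoxins, which reduce peroxides with electrons from thioredoxin or glutathione, 2 of 6 rose, 33.3% called against 24.1% of all tested genes. PRDX3, the mitochondrial form, had 183, 196 and 228 CPM in control and 342, 273 and 280.5 CPM in resistant libraries (log2FC 0.56, SE 0.11, adjusted p = 9.2e-05), 1.48-fold by the means. PRDX6, which is recharged by glutathione, had 209, 231 and 233 CPM in control and 307, 292 and 273 CPM in resistant libraries (log2FC 0.37, SE 0.10, adjusted p = 0.00427). For both genes every resistant library was above every control library. PRDX1, the peroxiredoxin with the highest mean CPM over the 6 libraries, had 269, 288 and 278 CPM in control and 315, 286 and 272 CPM in resistant libraries (log2FC 0.06, SE 0.10, adjusted p = 0.701), with overlap. PRDX1 shares 379 exon bases with MMACHC on the opposite strand, and whether counting used strand is not known from the sources used here. PRDX2, PRDX4 and PRDX5 had log2FC of -0.32, 0.13 and 0.06, none called, and PRDX2 spread over 47.1 to 88.4 CPM within control alone.

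In glutathione synthesis and recycling, 2 of 4 genes fell, 50.0% called against 24.1% of all tested genes. Except for GSS they had at least 100 CPM on average, a range in which 42.9% of genes were called. GSR, the reductase that returns oxidised glutathione to its reduced form, had 326, 361 and 361 CPM in control and 257, 260.0 and 252 CPM in resistant libraries (log2FC -0.45, SE 0.09, adjusted p = 0.000331). The resistant values of GSR lay close together and all were below control. GCLM, the modifier subunit of the rate-limiting glutamate-cysteine ligase, had 854, 1037 and 1077 CPM in control and 853, 853 and 821 CPM in resistant libraries (log2FC -0.23, SE 0.09, adjusted p = 0.048). Control replicate 1 was barely above the resistant libraries, and the other control libraries were higher. GCLM kept its call without control replicate 1 (adjusted p = 0.00834) or resistant replicate 1 (0.0425). It missed the threshold when any 1 of the other 4 libraries was dropped, with an adjusted p of 0.164 for control replicate 2, 0.305 for control replicate 3, 0.0943 for resistant replicate 2 and 0.154 for resistant replicate 3. It also missed it with no filter (0.0772) and with a filter of 1 CPM in 3 libraries (0.0782). The catalytic subunit GCLC had 249, 256 and 237 CPM in control and 235, 236 and 229 CPM in resistant libraries (log2FC -0.09, SE 0.10, adjusted p = 0.571), and glutathione synthetase, GSS, had a log2FC of -0.01 (SE 0.12).

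Of the 4 glutathione peroxidases tested, GPX2 and GPX4 fell, GPX8 rose and GPX3 was not called. That is 75.0% called, against 24.1% of all tested genes. GPX2, a selenoenzyme best known from the gut epithelium, had 317, 192 and 274 CPM in control and 60.1, 47.0 and 57.3 CPM in resistant libraries. It lost more than any other gene of the 46, 4.76-fold by the means (log2FC -2.24, SE 0.14, adjusted p = 4.66e-16), and the highest resistant library was under the lowest control library, 60.1 against 192 CPM. GPX4, the enzyme that reduces lipid hydroperoxides and holds back ferroptosis, had 274, 256 and 293 CPM in control and 267, 197 and 214 CPM in resistant libraries (log2FC -0.28, SE 0.11, adjusted p = 0.0459). Resistant replicate 1 lay within the control range. GPX4 missed the threshold with DESeq2 (adjusted p = 0.0689), with no filter (0.0616) and with the filter at 1 CPM (0.0723). The call was kept without control replicate 2 (adjusted p = 0.0436) or resistant replicate 1 (0.00282). For the other 4 libraries, dropped in turn, the adjusted p was 0.0868 for control replicate 1, 0.221 for control replicate 3, 0.273 for resistant replicate 2 and 0.161 for resistant replicate 3. GPX8, a cysteine peroxidase of the endoplasmic reticulum membrane, had 22.1, 22.8 and 17.6 CPM in control and 27.3, 37.1 and 32.7 CPM in resistant libraries (log2FC 0.64, SE 0.21, adjusted p = 0.0228), all resistant values above all control values. It was no longer called without control replicate 3 (adjusted p = 0.105), resistant replicate 2 (0.118) or resistant replicate 3 (0.0608). The secreted GPX3 had 25.7, 18.1 and 19.4 CPM in control and 14.6, 17.9 and 18.0 CPM in resistant libraries (log2FC -0.29, SE 0.25, adjusted p = 0.439), narrowly without overlap.

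Glutathione S-transferases, which couple glutathione to electrophiles and drugs, were called about as often as all tested genes: 1 of 9 tested rose and 1 fell, 22.2% against 24.1%. GSTP1 had 94.6, 85.5 and 109 CPM in control and 146, 113 and 129 CPM in resistant libraries (log2FC 0.43, SE 0.12, adjusted p = 0.00857). Its groups were apart, 109 CPM in the highest control and 113 CPM in the lowest resistant library. It was no longer called without control replicate 2 (adjusted p = 0.08) or resistant replicate 1 (0.0659). GSTM4 had 25.7, 10.2 and 16.4 CPM in control and 7.85, 6.11 and 4.50 CPM in resistant libraries (log2FC -1.46, SE 0.37, adjusted p = 0.00268). The control values were spread widely, and all lay above the resistant ones. With control replicate 1, the highest, and resistant replicate 3 left out the log2FC was -0.91 (adjusted p = 0.131). GSTM4 and GSTM2 share 375 exon bases on the same strand and belong to a family of similar genes, so the GSTM values are uncertain. GSTM2 had 0, 1 and 2 counts in control and 0, 4 and 0 in resistant libraries, too few to compare. MGST1, a membrane-bound transferase and the one with the highest mean CPM over the 6 libraries, had 528, 549 and 566 CPM in control and 655, 552 and 588 CPM in resistant libraries (log2FC 0.13, SE 0.09, adjusted p = 0.334). The log2FC of the remaining 6 ran from -0.44 for GSTA4 to 0.18 for GSTO1.

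Of the 3 enzymes that act on superoxide and hydrogen peroxide, CAT and SOD1 fell and SOD2 was not called. That is 66.7% called, against 24.1% of all tested genes. CAT, catalase, the peroxisomal enzyme that splits hydrogen peroxide, had 41.6, 44.6 and 54.6 CPM in control and 14.3, 10.3 and 13.7 CPM in resistant libraries. That is a 3.67-fold difference by the means (log2FC -1.88, SE 0.21, adjusted p = 6.88e-09), with the highest resistant library at 14.3 CPM and the lowest control library at 41.6 CPM. SOD1, the cytosolic copper and zinc superoxide dismutase, had 139, 149.9 and 178 CPM in control and 137, 98.3 and 113 CPM in resistant libraries (log2FC -0.43, SE 0.12, adjusted p = 0.00706). Resistant replicate 1 (137 CPM) nearly reached control replicate 1 (139 CPM). SOD1 was no longer called without control replicate 3 (adjusted p = 0.102) or resistant replicate 2 (0.0847). SOD2, the mitochondrial manganese enzyme, had 53.0, 92.1 and 87.4 CPM in control and 47.6, 55.2 and 79.6 CPM in resistant libraries (log2FC -0.37, SE 0.17, adjusted p = 0.105), with wide overlap. SOD2 shares 1106 exon bases with ACAT2 and 139 with WTAP on the opposite strand.

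The 3 enzymes of the pentose phosphate pathway, which supplies NADPH to both systems, were not called. PGD, the NADPH-forming 6-phosphogluconate dehydrogenase, had 903, 982 and 1011 CPM in control and 990.4, 932 and 956 CPM in resistant libraries (log2FC -0.01, SE 0.08, adjusted p = 0.949). TALDO1 (log2FC -0.01, SE 0.09) and TKT (log2FC -0.10, SE 0.09), of the non-oxidative branch, overlapped between groups as well. For these 3 genes the SE was at most 0.09.

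Of the 8 redox genes called higher, 4 (AKR1C1, AKR1C2, AKR1C3 and PRDX3) lie on chromosome 10. The AKR1C genes are neighbours with values that are not independent, so the 4 are not 4 separate cases. Of the 412 other tested genes of chromosome 10, 30.1% were called higher and 2.91% lower, with a median log2FC of 0.30 (11.7% and 12.3% over all tested genes). Within 2 Mb of AKR1C3, 4 of 13 other tested genes were called higher and 0 lower, with a median log2FC of 0.25. Around PRDX3 (chr10:119167703-119178833) 4 of 15 were higher and 0 lower, median 0.30. The fifth tested redox gene of the chromosome, GSTO1, was not called (log2FC 0.18, SE 0.17). Around GPX2, the strongest decrease, the median of 14 other tested genes within 2 Mb was 0.07, with 1 called higher and 1 lower. Around CAT the median of 21 was 0.13, with 7 higher and 1 lower. HMOX1 lay among 16 genes with a median of -0.47, of which 5 were called lower and 2 higher. The part of these surroundings in the values of the redox genes was not tested.

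**Figure D3:**
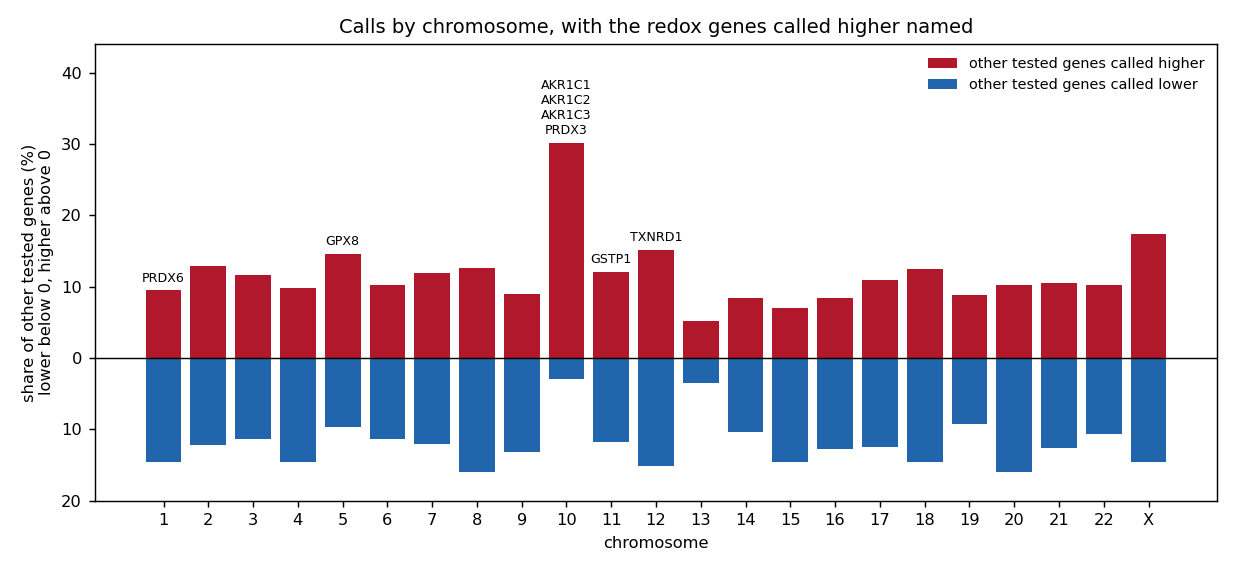
Share of tested genes outside the redox set called higher (above 0) or lower (below 0) on each chromosome, in percent, with the 8 redox genes called higher named over their chromosome. Chromosome 10 has 30.1% higher and 2.91% lower and carries 4 of the 8, among them the neighbouring AKR1C genes.

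Genes around the pathway were taken from 6 lists of 141 genes, of which 117 were tested. Of these, 15 were higher and 25 lower, 34.2% called, against 24.1% of all tested genes (11.7% higher and 12.3% lower). The lists were chosen with earlier results of these data known, so this excess is no independent finding. Among genes with at least 100 CPM on average 42.9% were called, and the lists were not compared within that range. In the first list, partners of NRF2 and its turnover, 3 of 15 rose and 7 fell, 66.7% called. BTRC, which marks NRF2 for degradation independently of KEAP1, had 25.2, 30.1 and 32.9 CPM in control and 47.4, 68.9 and 53.8 CPM in resistant libraries (log2FC 0.93, SE 0.18, adjusted p = 9.52e-05), and it also lies on chromosome 10. SQSTM1, the p62 scaffold that sequesters KEAP1 and is itself an NRF2 target, had 1522, 1769.5 and 1743 CPM in control and 2237, 1996 and 2056 CPM in resistant libraries (log2FC 0.32, SE 0.08, adjusted p = 0.00319). Both rose with no overlap between groups. SQSTM1 was no longer called with control replicate 1 and resistant replicate 3 left out (adjusted p = 0.0837). The related factor NFE2L1 fell (log2FC -0.50, SE 0.10).

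Of the other NRF2 targets, 1 of 29 rose and 11 fell, 41.4% called, with a median log2FC of -0.23. Over all tested genes 24.1% were called, 11.7% higher and 12.3% lower, with a median of -0.01. Of genes with at least 100 CPM on average, 42.9% were called, 24.6% higher and 18.3% lower. This list also holds genes below that level and was not compared within that range. ALDH3A1, an aldehyde dehydrogenase, had 715, 487 and 636 CPM in control and 161, 120.4 and 185 CPM in resistant libraries (log2FC -1.97, SE 0.12, adjusted p = 4.91e-16), and TSKU, a secreted proteoglycan, had a log2FC of -1.06 (SE 0.12). The only gene of the list called higher was BLVRB, which reduces biliverdin and flavins (log2FC 0.39, SE 0.11, adjusted p = 0.00736), and it was no longer called without resistant replicate 1 (adjusted p = 0.0988).

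Among other glutathione genes, 4 of 22 rose and 2 fell, 27.3% called and near the 24.1% of all tested genes. GLRX3, a glutaredoxin of iron-sulfur cluster handling on chromosome 10, had 97.2, 131 and 121 CPM in control and 224, 199 and 224 CPM in resistant libraries (log2FC 0.87, SE 0.11, adjusted p = 1.18e-07). CLIC1, a chloride channel protein with a glutathione transferase fold, rose (log2FC 0.53, SE 0.10, adjusted p = 8.32e-05). CHAC1, which degrades glutathione, had 43.2, 49.3 and 59.0 CPM in control and 27.6, 26.3 and 31.5 CPM in resistant libraries and fell (log2FC -0.83, SE 0.18, adjusted p = 0.000418). LANCL1, a glutathione-binding protein, had a log2FC of -0.63 (adjusted p = 0.0416), which missed the threshold with DESeq2 (adjusted p = 0.081), with the filter at 1 CPM (0.0527), or when edgeR was run without control replicate 3 (0.366) or resistant replicate 2 (0.252).

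Of the other thioredoxin and methionine sulfoxide reductase genes, 3 of 21 rose and 1 fell, 19.0% called and below the share of all tested genes. TXNIP, the inhibitor of thioredoxin, had 4.11, 9.79 and 14.7 CPM in control and 34.1, 24.4 and 38.1 CPM in resistant libraries (log2FC 1.68, SE 0.27, adjusted p = 1.07e-05), the widest increase of the 6 lists, with every resistant library above every control library. TMX2, a thioredoxin-like membrane protein, rose (log2FC 0.53, SE 0.12, adjusted p = 0.000668), and SESN2, a sestrin, fell (log2FC -0.99, SE 0.13, adjusted p = 9.97e-08). For NADPH supply and selenoprotein synthesis, 4 of 19 rose and 3 fell, 36.8% called against 24.1% of all tested genes. RPIA and RPE of the pentose phosphate pathway had log2FC of 0.71 and 0.56. RPIA was no longer called without control replicate 3 (adjusted p = 0.0548) or resistant replicate 3 (0.0718). RPE overlapped between groups and was no longer called without control replicate 1 (adjusted p = 0.148), control replicate 2 (0.0956), resistant replicate 1 (0.0601) or resistant replicate 3 (0.0674). SEPHS2, which makes the selenium donor for selenoproteins, had 267, 311 and 305 CPM in control and 182, 162 and 196 CPM in resistant libraries (log2FC -0.71, SE 0.10, adjusted p = 9.63e-07). H6PD, which makes NADPH in the endoplasmic reticulum, fell as well (log2FC -0.61, SE 0.16, adjusted p = 0.00357). Of the 11 oxidant sources and copper partners 1 was called, 9.09% against 24.1% of all tested genes. It was the extracellular dismutase SOD3, which had 6.17, 7.16 and 8.80 CPM in control and 3.25, 0.940 and 0.409 CPM in resistant libraries and fell (log2FC -2.33, SE 0.61, adjusted p = 0.00377). The size of the SOD3 decrease depended on resistant replicate 1, the highest of its group, without which the log2FC was -3.43 (adjusted p = 0.000581). SOD3 levels were low, at most 8.80 CPM in control and 3.25 CPM in resistant libraries, so either size is uncertain.

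**Figure D4:**
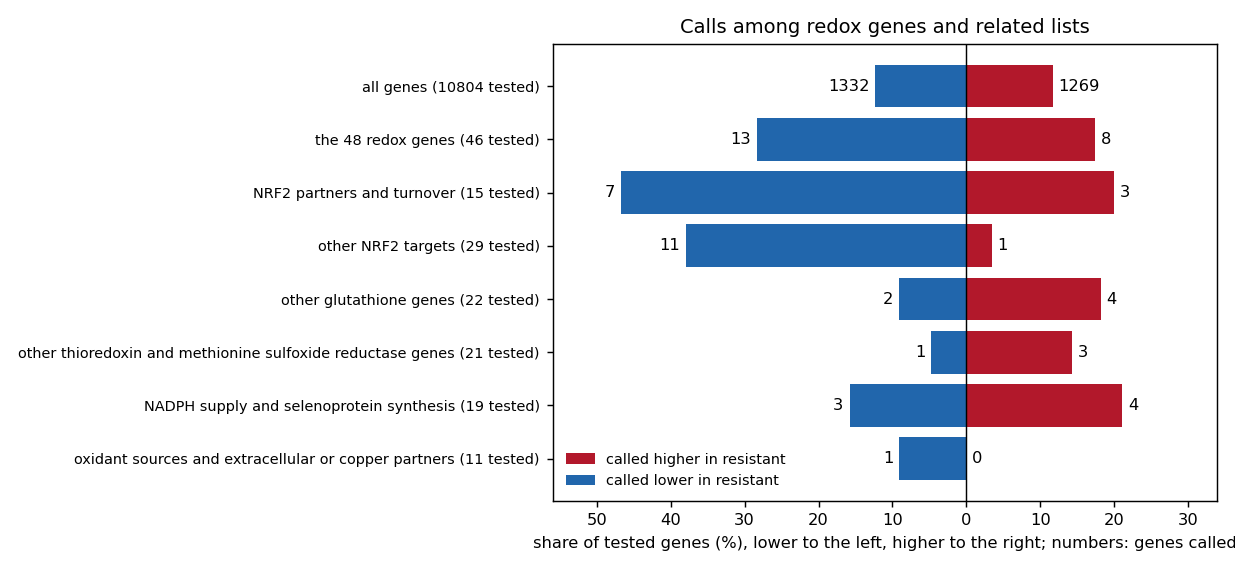
Share of tested genes called lower (left, blue) and higher (right, red), in percent, for all genes, the redox genes and the 6 lists around them, with the number of genes called beside each bar. The NRF2 partners and the other NRF2 targets extend mostly to the left, with 7 and 11 genes lower against 3 and 1 higher.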

How the data were processed

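The 6 libraries were made from total RNA, per the labels, taken with Trizol and a column kit. Trimmomatic, HISAT2 and Bowtie2 are listed, with neither version nor role, in the submitters' processing notes. Counter, genome build, annotation and strand setting: not given in the sources used here. The authors deposited raw whole-number counts per gene symbol, and the table of the series equalled the 6 single-library files. Of counts from 1 to 20, between 81.9 and 88.5% per library were even. The cause was not tested, and halved counts were tried as an alternative.

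After filterByExpr and TMM scaling, edgeR 4.0.16 (R 4.3.3) ran its quasi-likelihood test on group alone over 10804 genes at an adjusted p of 0.05. The method was tested on simulated data. Replicates of a group differed beyond counting noise and were all kept. The 48 genes and all lists were chosen with earlier results of these data known. Values per library are given for called genes, NFE2L2, KEAP1 and the gene of highest mean CPM in each role, and from each list for up to 2 called genes in each direction with the smallest p, except items not reported here. TXN, GCLC, GPX3 and SOD2 were added after their values were seen. Alternatives were other scalings, DESeq2 1.42.0, limma-voom (limma 3.58.1), 2 filters, a replicate block, halved counts and left-out libraries. GENCODE 29 (GRCh38) gave gene spans, transcript lengths and exon overlaps by symbol, and RefSeq (GRCh38.p14) the promoters. The background of genes with at least 100 CPM was added after the data were seen. Figures were drawn with matplotlib 3.10.9.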

Additional observations from a re-analysis of the deposited data

How the results depend on the processing

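Across 16 alternatives, 10 of the 21 called redox genes kept their call in every one, 3 higher (AKR1C3, PRDX3 and PRDX6) and 7 lower (OSGIN1, AKR1B1, AKR1B10, GLRX, GSR, GPX2 and CAT). The other 11 lost it in at least 1, and none of the 21 changed sign. Leaving out 1 library gave 5 to 7 redox genes higher and 9 to 14 lower, 1011 to 1117 of all genes higher and 1007 to 1150 lower, and 8 to 13 genes of the other lists higher and 19 to 22 lower. Without both control replicate 1 and resistant replicate 3 these were 3 and 11, 840 and 960, and 8 and 18. The other settings gave 7 or 8 redox genes higher and 11 to 13 lower. SRXN1, at 10 to 62 counts a library, is among the values limited by depth.

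Of the 25 redox genes not called, the 6 given by library under the naming rule (NFE2L2, KEAP1, NQO1, PRDX1, MGST1 and PGD) were recomputed under the alternatives, and 3 turned in sign. KEAP1 was -0.03 without control replicate 3, -0.26 without resistant replicate 3 and -0.26 without both control replicate 1 and resistant replicate 3, in a range of -0.26 to 0.20 over left-out libraries. PRDX1 was -0.0001 without resistant replicate 1, in a range of -0.0001 to 0.11. PGD was 0.0026 with no filter and 0.0082 where genes needed 1 CPM in 3 libraries, and ran from -0.052 to 0.031 over left-out libraries.

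Replicate numbers did not pair the samples: deviations of same-numbered libraries from their group means correlated at -0.015, 0.033 and -0.00648. With the number as a replicate block, 7 redox genes were higher and 12 lower, and TXNRD1 (adjusted p = 0.0517) and GCLM (0.0803) were no longer called.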
